A study of Mus musculus with 3 samples.

Results

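The Wnt and β-catenin pathway was followed here through 9 genes, *Ctnnb1*, *Lef1*, *Tcf7l1*, *Tcf7l2*, *Axin2*, *Wnt4*, *Fzd6*, *Lrp6* and *Apc*, out of 19927 gene symbols in the single-cell count matrices. They were chosen by name, and all 9 were listed in each of the 3 libraries. Single-cell RNA sequencing was done on epidermal and hair follicle cells of dorsal skin at postnatal day 18, the age at which mouse hair follicles regress. Controls 1 and 2 came from *Vdr* flox/flox mice, and the third library, named here the cKO-labelled library, came from *Vdr* flox/flox; Krt14cre mice (*Vdr* cKO), in which the *Krt14* promoter drives Cre recombinase in basal keratinocytes and the follicle's outer root sheath. All groups carried the floxed *Vdr* alleles, and each library pooled the skin of 3 male mice. With 1 library of *Vdr* cKO mice, a difference between genotypes and a difference between libraries cannot be told apart, and no p-value was computed for it.

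Canonical Wnt signaling starts when a secreted Wnt ligand binds a Frizzled receptor and its co-receptor Lrp5 or Lrp6. In the absence of ligand, a cytoplasmic complex built on Axin and Apc marks β-catenin for degradation, and with ligand β-catenin accumulates, enters the nucleus and joins the DNA-binding factors Lef1, Tcf7, Tcf7l1 and Tcf7l2. In skin this pathway is known for placing hair follicles, for building the hair shaft and for starting hair growth, and β-catenin also anchors cadherins to the cytoskeleton at cell junctions. The vitamin D receptor, the product of *Vdr*, is a nuclear receptor that keratinocytes need for the hair cycle.

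Of the genes compared, *Wnt4*, a ligand of the interfollicular epidermis and follicle, and *Tcf7l2*, a nuclear partner of β-catenin, stood apart. Their levels were over 2-fold higher in the cKO-labelled library than in both controls, as were 5.7% of the 7706 genes compared. *Tcf7l2*, under 10 CPM (counts per 1000000) in both controls, was compared only through its level in the cKO-labelled library. *Wnt4* was not over 2-fold higher with DESeq2 median-of-ratios factors. *Ctnnb1*, *Axin2*, *Fzd6*, *Lrp6* and *Apc* were not over 2-fold higher than both controls, and none of the 9 genes was over 2-fold lower. Within libraries, 5 of the 7 genes measured well enough for the test had higher levels in Krt14-high cells than in differentiated cells of all 3 libraries, which also held for 33.1% of all genes tested, and edgeR called none of them at an adjusted p of 0.05.

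After barcodes with fewer than 200 detected genes or over 20% mitochondrial counts were set aside, 1480, 1658 and 2622 cells remained in control 1, control 2 and the cKO-labelled library, with 18802408, 28690129 and 30954897 counts. The median cell had 4190, 4492.5 and 4055 counts, and it had 91.9, 118 and 165 detected genes per 1000 counts, so that the cKO-labelled library held more different genes at like depth. *Vdr* itself, the targeted gene, was at 40.7 and 35.9 CPM (counts of the gene per 1000000 counts) in the controls and 80.8 CPM in the cKO-labelled library, which was not lower. The engineered deletion is of exon 3, and counts per gene do not show whether exon 3 was present. The 7 markers of basal and outer root sheath cells, all with counts in every library, summed to 4710, 3401 and 12676 CPM in control 1, control 2 and the cKO-labelled library, and the 8 markers of differentiated epidermis to 84138, 93163 and 65336 CPM. Of the 6 inner root sheath markers, 1, 3 and 6 had a count, summing to 0.585, 2.54 and 235 CPM. Fibroblast or dermal papilla markers summed to 8.72, 0.767 and 3.78 CPM, so the cells under the follicle that send and receive Wnt signals were hardly present. Of the kept cells, 20, 21 and 18 shared their barcode with a cell of another library.

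Levels are given as CPM, the gene's counts summed over the kept cells in each 1000000 counts of the library, with 95% exact Poisson intervals. These intervals, like the binomial ones for shares of cells, cover counting error only, and they do not cover differences between mice or copies of a molecule made by PCR. Levels were compared between libraries for one gene at a time, and only for the 7 genes with a mean of at least 10 CPM over the 3 libraries.

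Among the ligands and receptors, *Wnt4* (GRCm38 chromosome 4, 137277489 to 137299726, plus strand) was at 26.8 CPM (24.5 to 29.2) and 22.8 CPM (21.05 to 24.6) in controls 1 and 2, beside 61.5 CPM (58.8 to 64.4) in the cKO-labelled library. The controls lay close to each other, and the third library lay above both, 2.30-fold over the nearer one and 1.28 on the log2 scale over their mean. *Wnt4* was counted in 38, 60 and 275 cells. *Fzd6*, a Frizzled receptor known for its part in hair orientation, was at 19.1 CPM (17.2 to 21.2), 17.8 CPM (16.3 to 19.4) and 29.2 CPM (27.3 to 31.1). Its level in the cKO-labelled library was above both controls by 1.53-fold or more, short of the limit, with a log2 fold of 0.63. *Lrp6*, the co-receptor, was at 55.4 CPM (52.1 to 58.8), 56.3 CPM (53.6 to 59.1) and 49.5 CPM (47.0 to 52.0), with a log2 fold of -0.17 that turned to 1.13 when the CPM of single cells was averaged and to 0.05 when each gene was counted no more than 1 time per cell.

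Of the cytoplasmic genes, *Ctnnb1* (chromosome 9, 120929216 to 120960507, plus strand), which encodes β-catenin, was at 161 CPM (156 to 167), 125 CPM (121 to 129) and 182 CPM (177 to 187). Its log2 fold was 0.34, and control 1 lay above control 2 by 0.36, so the distance from the control mean was no larger than that between the controls. *Apc*, the scaffold of the destruction complex, was at 36.8 CPM (34.1 to 39.7), 44.8 CPM (42.3 to 47.3) and 51.0 CPM (48.5 to 53.6), a log2 fold of 0.32. *Axin2* (chromosome 11, 108920349 to 108950783, plus strand), both a part of that complex and a widely used β-catenin target gene, was at 51.9 CPM (48.7 to 55.2), 47.4 CPM (44.9 to 49.96) and 45.1 CPM (42.8 to 47.6). The intervals of the 2 controls overlapped, as did those of control 2 and the cKO-labelled library, and the *Axin2* log2 fold was -0.13, or 0.13 with each gene counted no more than 1 time per cell.

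The nuclear factors had few counts. *Tcf7l2* (chromosome 19, 55741820 to 55933654, plus strand) was at 8.46 CPM (7.19 to 9.88), 4.22 CPM (3.50 to 5.04) and 24.3 CPM (22.6 to 26.1), 2.87-fold over the nearer control and 1.78 on the log2 scale over their mean. These levels came from 16, 31 and 126 cells. *Tcf7l1*, a TCF factor that mostly represses its targets and is known from bulge stem cells, was at 0.213, 1.05 and 6.14 CPM, from 2, 4 and 30 cells, under the limit for a comparison. *Lef1*, the factor of hair matrix and precortex cells, was at 1.97, 0.105 and 1.81 CPM, from 2, 2 and 6 cells, and 81.1% of its 37 counts in control 1 were in 1 cell. The plot of CPM by library shows these levels with their intervals.

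**Figure D1:**
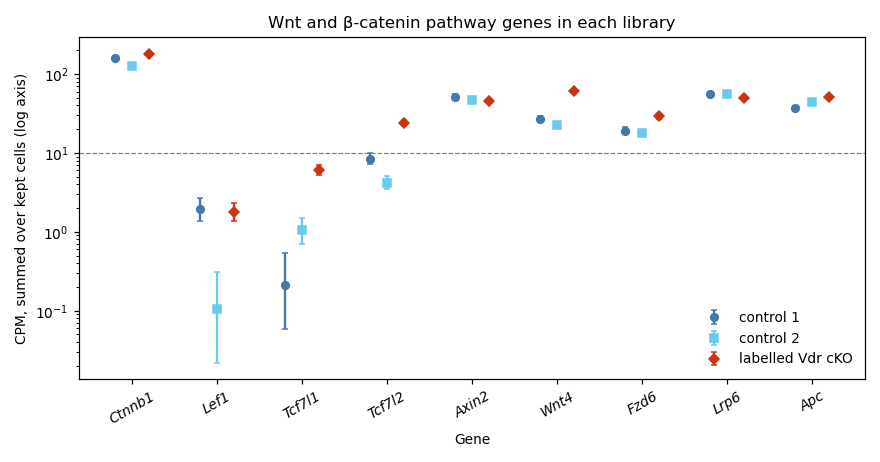
CPM of each gene (log axis) in control 1 (circles), control 2 (squares) and the cKO-labelled library (diamonds), with 95% exact Poisson intervals for counting error, and the 10 CPM limit as a dashed line. *Wnt4* at 61.5 CPM and *Tcf7l2* at 24.3 CPM stand above both controls in the third library, *Axin2* and *Lrp6* lie close together in all 3, and *Lef1* and *Tcf7l1* are under the limit.

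Thus 2 of 7 genes compared, *Tcf7l2* and *Wnt4*, were over 2-fold above both controls and 0 were over 2-fold below. Over all 7706 genes with such a mean, 439, or 5.7%, were above by this rule and 110, or 1.43%, were below, and of the 5897 genes between 10 and 100 CPM, the range of most of these genes, 6.94% were above. A count of 2 in 7 is no test of the pathway against this background. *Tcf7l2*, under 10 CPM in both controls, reached the mean of 10 CPM through the library in which it was high, so it had to differ to be compared. With a limit of 10 CPM in at least 1 control, chosen after seeing the data, 6 of the 9 genes were compared and *Wnt4* alone was above, beside 3.56% of all genes above and 1.96% below. With control 1 in the place of the third library, 0 of the 7 genes were above and 0 below the other libraries. Of all 7706 genes, 138 were then above and 320 below. With control 2 there, 0 of the 7 were above and 1 was below, beside 45 above and 324 below of all 7706. The median log2 fold of the 7 genes was 0.34 beside 0.11 for all genes compared, and TMM factors would shift each fold by -0.18. With TMM factors 302 of 486 genes apart were above, beside 439 of 549 without them, and *Tcf7l2* and *Wnt4* stayed over the limit, whereas with DESeq2 median-of-ratios factors only *Tcf7l2* did. The part of the richer basal marker content and of the greater number of genes per count in these differences was not tested.

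The share of cells with a count was compared after each cell was thinned to 1000 counts, which left 1466, 1597 and 2562 cells. *Ctnnb1* was found in 4.57% (3.56 to 5.77), 6.32% (5.18 to 7.63) and 11.1% (9.93 to 12.4) of these cells, and in 11.2%, 18.2% and 29.98% before thinning. *Wnt4* was found in 1.02% (0.574 to 1.68), 1.69% (1.12 to 2.45) and 4.18% (3.44 to 5.02), and in 2.57%, 3.62% and 10.5% before thinning. *Tcf7l2* was found in 0.477% (0.192 to 0.981), 0.250% (0.0683 to 0.640) and 1.68% (1.22 to 2.25), with 1.08%, 1.87% and 4.81% before. For these 3 genes the interval of the cKO-labelled library lay above those of both controls. How many of all genes had intervals apart in this way was not counted, so this was not read as a trait of these genes.

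*Axin2* was found in 1.77% (1.16 to 2.59), 2.50% (1.80 to 3.40) and 3.55% (2.87 to 4.34) of thinned cells, and *Apc* in 1.30% (0.782 to 2.02), 2.50% (1.80 to 3.40) and 3.08% (2.45 to 3.83). *Fzd6* was found in 0.546%, 1.00% and 2.03%, and *Lrp6* in 1.57%, 2.19% and 3.24%. The share was highest in the cKO-labelled library for 7 of these 7 genes, but the same held for 70.2% of all genes of this level, and for *Axin2* and *Lrp6* it went against the CPM, so no order was read from these shares. *Axin2* counts were spread over more cells there, with a mean of 5.06 counts in each cell that had any, beside 12.2 and 10.6 in the controls. *Lrp6* had 6.41 counts per such cell, beside 15.1 and 12.9. This was not particular to these genes, since *Ctnnb1*, *Wnt4*, *Fzd6* and *Apc* also had fewer counts per such cell there than in both controls. *Tcf7l2*, at 5.96 beside 9.94 and 3.90, did not. The plot of shares at equal depth shows these values with their intervals.

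**Figure D2:**
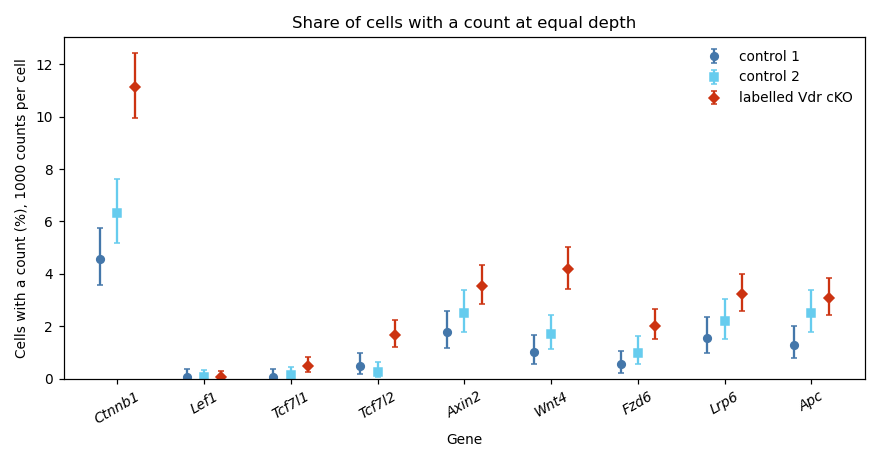
Percent of cells with at least 1 count of each gene after thinning every cell to 1000 counts, by library, with 95% exact binomial (Clopper-Pearson) intervals for counting error. *Ctnnb1* was found in 11.1% of cells of the cKO-labelled library beside 4.57% and 6.32% in the controls, and a higher share in that library also held for 70.2% of all genes of this level.

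Counts of these genes were also found in cells with blood-derived markers, in which free RNA or doublets may add counts. In the cKO-labelled library, 39 cells (median of 8934 counts) had counts of at least 3 of 5 antigen-presenting markers, and *Wnt4* was at 99.4 CPM (82.7 to 119) in them beside 59.95 CPM in the other cells. The 17 such cells of control 2 (median of 39117 counts) had *Wnt4* at 141 CPM (114 to 172), from 6 cells, beside 19.8 CPM in the other cells. The 4 such cells of control 1 had 0 counts of *Wnt4*, with an interval up to 47.2 CPM. In the cKO-labelled library, 19 cells had counts of at least 3 of 5 T cell markers, with *Wnt4* at 52.9 CPM (37.9 to 71.7) beside 61.8 CPM. Whether these cells express the genes themselves was not tested. A share of cells with a count was therefore not read as a share of cells that express the gene.

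To ask where along the course from basal to cornified cells the genes were detected, levels were set side by side for 2 classes of cells within each library. Krt14-high cells had *Krt14* in the top 25% of the library's cells and *Lor*, which encodes the cornified envelope protein loricrin, at or below the median, and differentiated cells had *Lor* in the top 25% and *Krt14* at or below the median. There were 163, 188 and 390 Krt14-high cells and 216, 236 and 367 differentiated cells in control 1, control 2 and the cKO-labelled library. The classes are ranges of 2 genes and not cell types, and 6, 4 and 43 cells lay within 10% of the *Krt14* limit. Summed over the Krt14-high cells, *Krt5*, the basal partner of *Krt14*, was at 2157, 1370 and 4612 CPM in the libraries in this order, with a median per cell of 313, 30.9 and 3256 CPM. *Krt10*, a keratin of the suprabasal layers, was at 11818, 22327 and 13640 CPM in these sums, with a median per cell of 21473, 16845 and 6532 CPM. The class was thus not alike in the 3 libraries, and levels in it are given for each.

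*Wnt4* was at 80.1 CPM (68.3 to 93.4) in Krt14-high and 7.07 CPM (4.26 to 11.0) in differentiated cells of control 1, at 75.7 CPM (66.9 to 85.3) and 0.295 CPM (0.00746 to 1.64) in control 2, and at 72.3 CPM (65.2 to 80.0) and 32.0 CPM (27.3 to 37.1) in the cKO-labelled library. Its intervals in Krt14-high cells overlapped among the 3 libraries, whereas in differentiated cells the cKO-labelled library lay above both controls. The differentiated cells were not alike either, with *Krt14* at 0, 0 and 304 CPM in control 1, control 2 and the cKO-labelled library. *Krt5* in them was at 390, 120 and 826 CPM, and the part of this in the *Wnt4* difference was not tested. The fitted log2 fold of *Wnt4* between the classes was 3.32 ± 1.35 (SE), with an adjusted p of 0.24 from edgeR's quasi-likelihood test with Benjamini-Hochberg adjustment and an adjusted p of 0.00955 from DESeq2. Only 4, 12 and 55 Krt14-high cells had a *Wnt4* count, and 89.6% of the counts in control 1 came from 1 cell. The log2 fold was 1.91 without control 2, 4.90 without the cKO-labelled library and 0.74 with each gene counted no more than 1 time per cell.

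*Axin2* was at 106 CPM (92.5 to 121) in Krt14-high and 13.8 CPM (9.69 to 19.0) in differentiated cells of control 1, at 58.9 CPM (51.2 to 67.4) and 18.6 CPM (14.3 to 23.8) in control 2, and at 69.1 CPM (62.1 to 76.5) and 23.1 CPM (19.2 to 27.6) in the cKO-labelled library. All 3 Krt14-high sums of *Axin2* lay above all 3 differentiated sums, with a log2 fold of 1.65 ± 0.79 and an adjusted p of 0.33 from edgeR. *Apc* was at 34.9 and 0 CPM in control 1, where the exact Poisson interval of the count of 0 reached 1.37 CPM. It was at 31.4 and 7.96 CPM in control 2, and at 60.1 and 23.5 CPM in the cKO-labelled library. Its sums were higher in Krt14-high cells of every library, with a log2 fold of 2.56 ± 1.59 and an adjusted p of 0.48 from edgeR. Few Krt14-high cells had a count, 13, 16 and 61 for *Axin2* and 4, 11 and 48 for *Apc* in the libraries in this order. In control 1, 44.0% of these *Axin2* counts and 57.7% of these *Apc* counts were in 1 cell.

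*Ctnnb1* was at 132 CPM (117 to 149) and 113 CPM (100 to 126) in Krt14-high and differentiated cells of control 1, at 142 CPM (130 to 155) and 59.5 CPM (51.6 to 68.3) in control 2, and at 272 CPM (258 to 287) and 105 CPM (96.7 to 114) in the cKO-labelled library. In control 1 the intervals of the 2 classes overlapped, and the Krt14-high level of *Ctnnb1* in the cKO-labelled library was above those of both controls. In control 1, 41.6% of the Krt14-high counts were in 1 of 13 cells with a count. With the same classes and cells thinned to 1000 counts, *Ctnnb1* was found in 3.70% of Krt14-high and 6.13% of differentiated cells of control 1. These shares were 8.06% and 4.46% in control 2, and 16.3% and 8.55% in the cKO-labelled library. The log2 fold between the classes was 0.55 ± 0.48, with an adjusted p of 0.63 from edgeR, and it was -0.017 when cells were thinned to 1000 counts before they were classed.

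*Fzd6* was at 65.4 and 29.8 CPM, 33.4 and 24.8 CPM, and 40.3 and 8.27 CPM in Krt14-high and differentiated cells of control 1, control 2 and the cKO-labelled library. It had a log2 fold of 0.87 ± 0.91 and an adjusted p of 0.70 from edgeR. In control 1, 100% of the *Fzd6* counts in differentiated cells and 70.7% of those in Krt14-high cells, from 3 cells, were in 1 cell. In control 2 the *Fzd6* intervals of the 2 classes overlapped, at 27.6 to 39.9 and 19.7 to 30.7 CPM. *Tcf7l2* was at 26.1 and 4.09 CPM, 2.80 and 4.42 CPM, and 38.5 and 3.38 CPM, with Krt14-high counts in 3, 2 and 25 cells. Control 2 went the other way, with overlapping intervals of 1.34 to 5.15 and 2.47 to 7.29 CPM. The *Tcf7l2* log2 fold was 1.59 ± 1.77, with an adjusted p of 0.73 from edgeR. *Lrp6* was the one gene with a negative fold, at 41.8 and 50.6 CPM, 63.9 and 52.5 CPM, and 35.9 and 54.5 CPM. Its log2 fold was -0.60 ± 0.70, with an adjusted p of 0.74 from edgeR, and it was 0.56 with thinned cells. *Tcf7l1* had no count in either class of the controls. In the classes of the cKO-labelled library it was at 8.77 and 0.188 CPM, and 80.4% of its Krt14-high counts were in 1 cell. *Lef1* had no count in the Krt14-high cells of any library, with exact Poisson intervals that reached 1.81, 1.03 and 0.704 CPM.

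**Figure D3:**
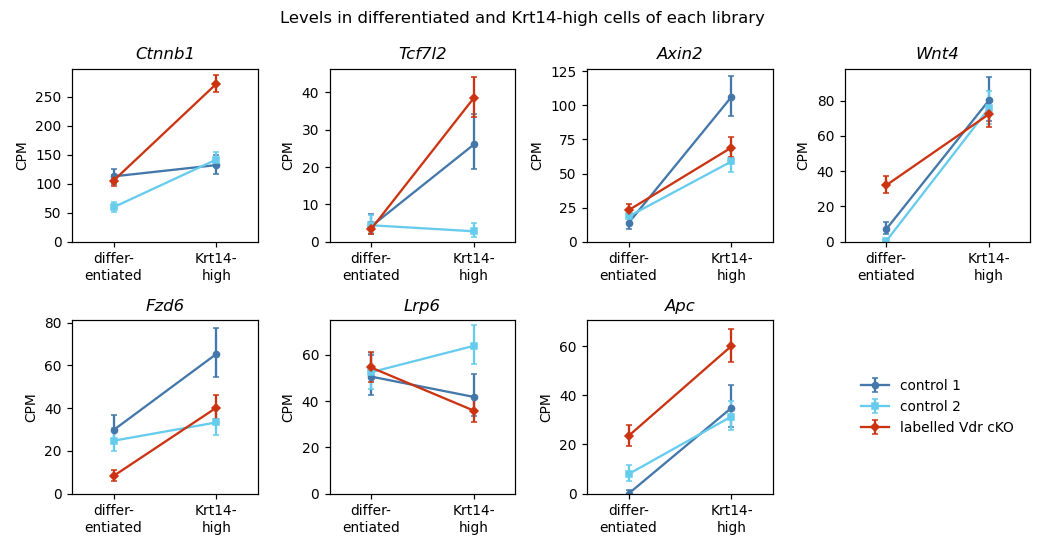
CPM of 7 genes (axes from 0) in differentiated and Krt14-high cells of each library, with 95% exact Poisson intervals for counting error and a line for each library. *Wnt4*, *Axin2*, *Apc*, *Ctnnb1* and *Fzd6* are higher in Krt14-high cells in all 3 libraries, and *Wnt4* in differentiated cells is at 32.0 CPM in the cKO-labelled library beside 7.07 and 0.295 CPM in the controls. *Krt14* in differentiated cells is at 304 CPM in that library and at 0 CPM in both controls. The intervals of the 2 classes overlap for *Ctnnb1* in control 1 and for *Fzd6* in control 2. In control 1, 1 cell holds 41.6% of the Krt14-high *Ctnnb1* counts.

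In all, edgeR called 0 of these 7 genes between the classes, with 1 gene, *Wnt4*, at an unadjusted p under 0.05, and DESeq2 called 1, *Wnt4*. Over all genes, 363 of the 7705 tested, or 4.71%, were called by edgeR, of which 98 were higher in Krt14-high cells, and 1191 by DESeq2. Without TMM factors 155 of 346 calls were higher, and the TMM factors shifted each log2 fold by -0.36. That 5 of 7 genes were higher in Krt14-high cells of all 3 libraries is to be read beside 33.1% of all genes tested, and the median log2 fold of the 7 was 1.59 beside 0.13 over all genes. Among the 5, the intervals of the 2 classes overlapped for *Ctnnb1* in control 1 and for *Fzd6* in control 2.

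Cells were also ordered from high *Lor* to high *Krt14* and cut into 5 bins of equal cell number, to follow the genes between the extremes. *Axin2* went along the bins from 11.3 to 93.8 CPM in control 1 and from 23.4 to 76.3 CPM in the cKO-labelled library, and it was at 20.6, 60.6, 53.4, 38.3 and 60.3 CPM in control 2. *Apc* went from 3.04 to 61.4 CPM, from 9.07 to 59.3 CPM and from 23.6 to 80.0 CPM between the outer bins of control 1, control 2 and the cKO-labelled library, lowest in the *Lor* bin of each. *Wnt4* in the bin richest in *Lor* was at 10.5 CPM (7.43 to 14.4) in control 1, 0.412 CPM in control 2 and 51.9 CPM (46.0 to 58.4) in the cKO-labelled library. *Krt14* in this bin was itself at 13.0, 10.9 and 202 CPM in the libraries in this order. In the bin richest in *Krt14*, *Wnt4* was at 45.0, 44.1 and 75.9 CPM, highest in the cKO-labelled library. In the Krt14-high class, which is set by other limits and is not a subset of this bin, *Wnt4* was lowest in that library at 72.3 CPM with overlapping intervals. The order of the libraries for *Wnt4* CPM thus differed between this bin and the class, but the class sums leaned on few cells. In control 1, 89.6% of the Krt14-high *Wnt4* counts were in 1 of 4 cells with a count. After thinning, *Wnt4* was found in 1.85% (0.384 to 5.32), 2.69% (0.878 to 6.16) and 6.74% (4.45 to 9.71) of Krt14-high cells. This share was highest in the cKO-labelled library, as in the bin, with overlapping intervals. Whether the cut or single cells turned the order was not tested.

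*Tcf7l2* was at 13.6, 6.82 and 46.6 CPM in the *Krt14* bin and 3.04, 4.33 and 6.12 CPM in the *Lor* bin of control 1, control 2 and the cKO-labelled library. In the second bin it was at 2.81, 0 and 19.9 CPM. The *Krt14* level of that end bin was itself 2143, 1586 and 4395 CPM. *Ctnnb1* was at 98.9, 280, 184, 130 and 166 CPM along the bins of control 1, with its peak in the second, and it went from 72.3 to 136 CPM and from 108 to 258 CPM between the outer bins of the other libraries. *Lrp6* had no common course, at 87.1, 56.5 and 42.5 CPM in the *Krt14* bin and 47.2, 63.0 and 55.1 CPM in the *Lor* bin. These courses share cells with the class test and were given no test of their own.

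**Figure D4:**
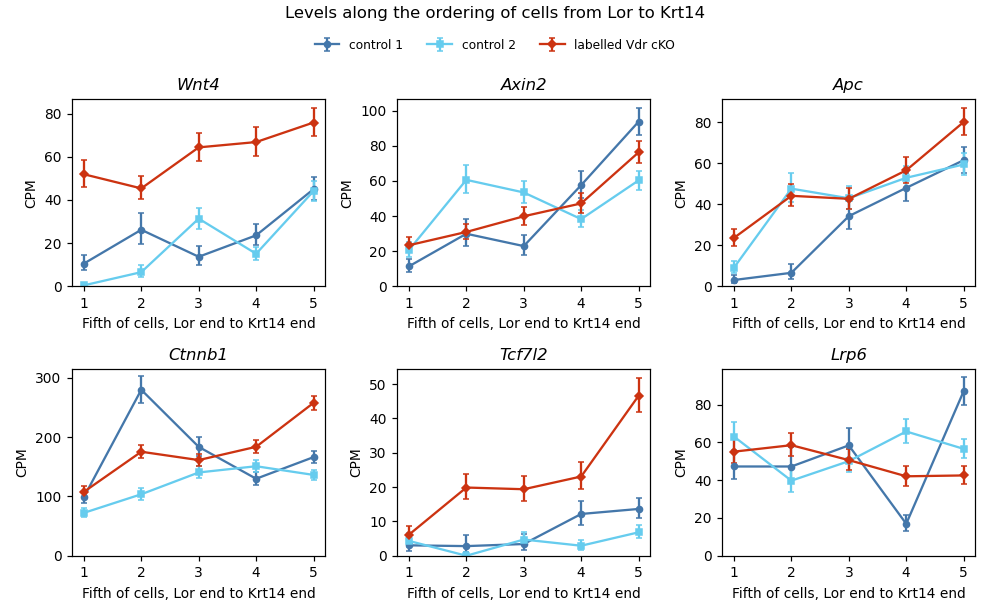
CPM of 6 genes (axes from 0) in 5 bins of equal cell number, ordered within each library from the *Lor* end (bin 1) to the *Krt14* end (bin 5), with 95% exact Poisson intervals for counting error. *Wnt4* in bin 1 is at 51.9 CPM in the cKO-labelled library and at 10.5 and 0.412 CPM in the controls, *Apc* is lowest in bin 1 of every library, and *Tcf7l2* reaches 46.6 CPM in bin 5 of the cKO-labelled library. *Krt14* in bin 1 is at 202 CPM in that library and at 13.0 and 10.9 CPM in the controls.

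Over these 15 bins of 3 libraries, the 5 genes whose log2 level had the highest Pearson correlation with that of *Ctnnb1*, among 2747 genes with at least 50 CPM in every library, were *B230219D22Rik* (r = 0.894), *Cst3* (0.885), *Snx3* (0.837), *Pkn2* (0.830) and *mt-Rnr2* (0.814). The bins share libraries and depth, so this is a description of likeness. *Cst3* encodes the secreted protease inhibitor cystatin C, *Snx3* a sorting nexin of endosomes known for recycling the Wnt carrier Wls, and *mt-Rnr2* the large mitochondrial ribosomal RNA.

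Of 103 other genes of the pathway, 85 were listed in a matrix and 50 reached a mean of 10 CPM. Of these, 10 were over 2-fold above both controls in the cKO-labelled library and 0 were below, beside 5.7% and 1.43% of all genes compared. The median log2 fold of the 50 was 0.29, beside 0.11 for all genes compared. Of these 10, 6 were under 10 CPM in both controls and reached the mean of 10 CPM through the library in which they were high. With the limit set in at least 1 control, 4 of 44 genes, *Sostdc1*, *Apcdd1*, *Jun* and *Id2*, were above and 0 below. By list, the 10 were 2 of 4 ligands, 2 of 5 receptors, 3 of 5 secreted or membrane inhibitors, 1 of 11 nuclear partners and 2 of 8 target genes, with 0 of 1 gene of ligand secretion, 0 of 11 genes of cytoplasmic transduction and the destruction complex and 0 of 5 adherens junction partners of β-catenin. Among the ligands, *Wnt10a* was at 6.91, 0.418 and 24.8 CPM and *Wnt16* at 1.12, 7.01 and 30.9 CPM in control 1, control 2 and the cKO-labelled library. Among the receptors, *Fzd1* was at 6.49, 7.08 and 17.2 CPM, and *Lgr4*, the R-spondin receptor, at 4.04, 9.48 and 25.97 CPM. These 4 genes, *Sfrp1* and *Tle1* were the 6 below 10 CPM in both controls.

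Among the inhibitors, *Sfrp1*, a secreted Frizzled-like protein that binds Wnt ligands, was at 2.55, 4.01 and 40.9 CPM, a log2 fold of 3.29. *Sostdc1*, a secreted inhibitor of Wnt and BMP signals that binds Lrp6, was at 48.7, 56.3 and 175 CPM, a log2 fold of 1.72. *Apcdd1*, a membrane inhibitor of Wnt signaling, was at 17.4, 13.3 and 59.1 CPM, a log2 fold of 1.88. Each was over 2-fold above both controls, as was the ligand *Wnt4*, though *Sfrp1* was under 10 CPM in both controls. The target gene *Axin2* was not over this limit, but it does not stand for the target genes as a list. Of the 8 listed target genes compared, which do not include *Axin2*, 2 were over the limit, beside 5.7% of all genes compared. The median log2 fold of the 8 was 1.16, beside 0.11 for all genes compared. A count of 2 in 8 is no test of the target genes.

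The other genes over the limit were *Tle1*, a corepressor of TCF factors, at 7.23, 9.93 and 22.5 CPM, and the target genes *Id2*, at 14.5, 12.9 and 36.6 CPM, and *Jun*, at 244, 253 and 1121 CPM. *Jun* is also an immediate early gene that tissue dissociation is known to raise. The target genes *Ccnd1*, *Tnfrsf19*, *Cd44* and *Myc* had log2 folds of 1.38, 1.20, 1.12 and 0.93. The remaining target genes compared, *Dlx3* and *Sp6*, had log2 folds of 0.25 and 0.07. None of these was over 2-fold above both controls. The 5 adherens junction partners compared had log2 folds from -0.26 (*Ctnnd1*) to 0.18 (*Vcl*). The other gene of that list, *Cdh3*, the P-cadherin of basal and follicle cells, was at 0.479, 0.523 and 12.9 CPM, under the limit for a comparison. Markers of the basal and bulge cells in which some of these genes are known to be used moved with them, since the 5 bulge markers summed to 91.3, 41.7 and 254 CPM, and their part was not tested.

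**Figure D5:**
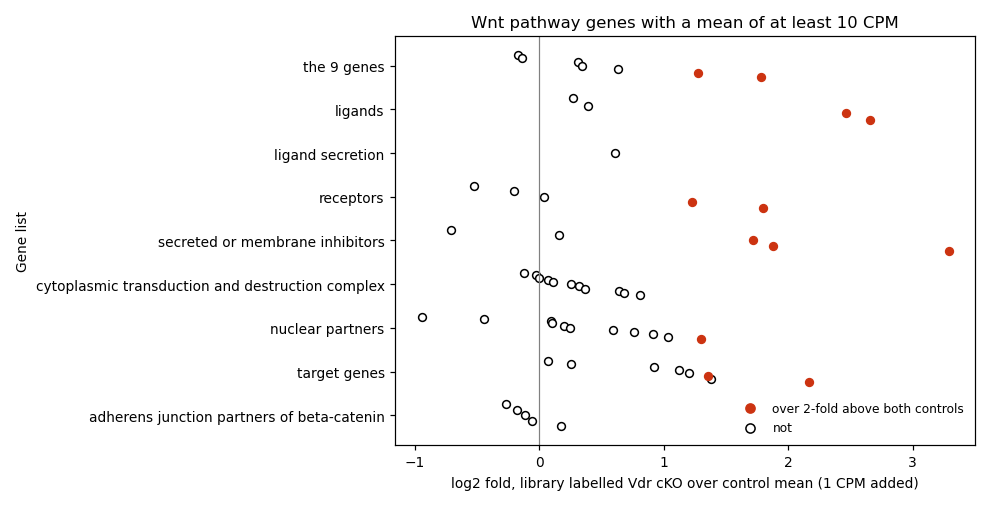
Log2 fold of the cKO-labelled library relative to the mean of the controls (1 CPM added) for the 7 genes compared, in the top row, and for 50 other pathway genes by list, 1 point per gene. Filled points are the genes over 2-fold above both controls, which number 2 of 7 and 10 of 50, beside 5.7% of all genes compared. None is among the 11 cytoplasmic genes and the 5 junction partners. *Tcf7l2* and 6 of the 10 were under 10 CPM in both controls and reached the mean of 10 CPM through the library in which they were high. With the limit set in at least 1 control, *Wnt4* and 4 of 44 other pathway genes were above, beside 3.56% of all genes.

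Between the classes of cells, 49 of the other pathway genes were tested, and edgeR called 1, beside 4.71% of all genes. It was *Ctnnbip1*, which encodes an inhibitor that keeps β-catenin from binding TCF factors. *Ctnnbip1* was at 134 and 558 CPM in Krt14-high and differentiated cells of control 1, at 114 and 582 CPM in control 2, and at 92.1 and 312 CPM in the cKO-labelled library. It was thus lower in Krt14-high cells of all 3 libraries, with a log2 fold of -2.46 ± 0.36 and an adjusted p of 0.00366 from edgeR's quasi-likelihood test. Over whole libraries *Ctnnbip1* was at 360, 278 and 166 CPM, a log2 fold of -0.94 that was not over 2-fold. The *Axin2* and *Wnt4* sums were lower in the differentiated cells, but edgeR called neither gene between the classes. A link between *Ctnnbip1* and these genes was not tested.

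The bases before the transcription start are shown for the genes that were over the limit between libraries, *Tcf7l2* and *Wnt4*, and for the target gene *Axin2*, which was not. The sequences come from RefSeq promoters of build GRCm38.p6, are on the plus strand, which is the strand of these genes, and run 5′ to 3′ up to the last base before the start, or for *Wnt4* before the annotated first exon. Capitals mark the core of the TCF/LEF binding motif, CAAAG or its reverse complement CTTTG, searched on both strands.
Tcf7l2, chr19:55741560-55741809: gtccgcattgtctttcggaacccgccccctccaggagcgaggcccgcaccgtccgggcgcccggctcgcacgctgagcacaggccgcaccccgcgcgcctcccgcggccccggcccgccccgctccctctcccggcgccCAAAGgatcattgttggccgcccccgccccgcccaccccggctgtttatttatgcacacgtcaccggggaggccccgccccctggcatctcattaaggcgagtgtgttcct
Wnt4, chr4:137277385-137277488: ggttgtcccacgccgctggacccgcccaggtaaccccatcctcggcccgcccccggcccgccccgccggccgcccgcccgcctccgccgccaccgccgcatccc
Axin2, chr11:108920099-108920348: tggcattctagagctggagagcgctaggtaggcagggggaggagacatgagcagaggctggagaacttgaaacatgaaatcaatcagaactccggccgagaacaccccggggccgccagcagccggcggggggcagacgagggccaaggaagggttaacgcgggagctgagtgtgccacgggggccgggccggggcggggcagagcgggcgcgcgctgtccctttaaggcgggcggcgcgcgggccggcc
The *Tcf7l2* window held 1 core match, 111 bases before the start, and the *Wnt4* and *Axin2* windows held none of these letters. The RefSeq starts searched here were 11 starts of 6 of the 9 genes, and no start of *Fzd6*, *Lrp6* or *Apc* was searched. Of these starts, 7 of 3 genes, *Lef1*, *Tcf7l1* and *Tcf7l2*, held a core match in the 250 bases before them. The same 5 letters were found in 48.6% of the 32851 mouse promoters of this length. A match is a description of letters and not a binding site, and no link was drawn between these letters and the levels above.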

How the data were processed

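Single-cell RNA sequencing was performed by the authors with a droplet kit (RNAdia) on trypsin-isolated skin cells, in 3 libraries. Raw counts per gene and barcode were deposited as 1 matrix per library, with no normalization by the authors. The submitters' processing notes name build mm10, and the paper names Seurat for alignment. The rule for counting molecules is not given in the sources used here, and counts may include PCR copies.

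Kept cells had 200 or more detected genes and no more than 20% mitochondrial counts, and no doublet caller was run. Counts were summed per library, as CPM, and per library and cell class. Class sums were tested with edgeR 4.0.16 (quasi-likelihood, TMM, library as a block, 7705 genes with a mean of at least 10 CPM, without *Krt14* and *Lor*), in R 4.3.3, with DESeq2 1.42.0 as an alternative. Library folds had 1 CPM added before the log. The fit was also run on simulated counts of lower dispersion than the common dispersion of 0.565 fitted to the class sums. That run does not show how the test performs on these sums. Samples were grouped by the labels' genotype. Gene positions are from GENCODE M21 and promoters from RefSeq. The genes, lists and tests were chosen with earlier results of these data known. Named genes were the 9 genes, *Krt14*, *Lor* and *Vdr*, listed pathway genes that passed a rule or test, at most 8 per list, and the 5 most like *Ctnnb1*. *Ccnd1*, *Tnfrsf19*, *Cd44*, *Myc*, *Dlx3*, *Sp6*, *Ctnnd1*, *Vcl* and *Cdh3* fell outside this rule and were named after their values were seen, and so were *Krt5* and *Krt10*.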

Additional observations from a re-analysis of the deposited data

Results flagged for a closer look

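Signal of the 9 genes was also found in barcodes outside the comparisons, those with under 200 detected genes or over 20% mitochondrial counts. In control 1, 462 counts of the 9 genes were in 1308 such barcodes, at 405 CPM summed over the genes beside 362 CPM in kept cells. In control 2, 214 counts were in 802 such barcodes, at 388 CPM beside 320 CPM. In the cKO-labelled library, 49 counts were in 160 such barcodes, at 389 CPM beside 450 CPM. With all deposited barcodes included, *Tcf7l2* and *Wnt4* were again the 2 genes over the limit.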

How the results depend on the processing

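Of 18 alternatives for the count of genes over 2-fold apart in the cKO-labelled library, 14 gave 2 or 3 genes, all higher. The count was 1 with DESeq2 median-of-ratios factors (*Tcf7l2*), 1 among genes reaching 50 CPM in any library (*Wnt4*), 1 with at least 10 CPM in at least 1 control (*Wnt4*), an alternative chosen after seeing the data, and 0 at 3-fold. It was 2 without either control replicate, when 12.7% or 13.2% of all genes were above. Of 20 alternatives for the class test, 19 called 0 of the genes and DESeq2 called 1, *Wnt4*. The adjusted p of *Wnt4*, 0.24 from edgeR, ran over the alternatives from 0.00955 to 0.94. With cells thinned to 1000 counts before classing, the log2 fold was -0.017 for *Ctnnb1* and 0.56 for *Lrp6*, and the cause was not tested. Calls over all genes, 363 in the main test, were 150 with at least 500 detected genes, 153 without control replicate 2, 185 with thinned cells, 675 with no limit for the level, 1138 with each gene counted no more than 1 time per cell and 1191 by DESeq2. Leaving out barcodes shared between libraries, barcodes 1 base apart or each gene's highest cell, 3 further alternatives chosen after seeing the data, gave the counts of 2 and 0 again. *Lef1* and *Tcf7l1*, under 10 CPM in each library, were in neither comparison. No paired comparison of control and *Vdr* cKO libraries was made, since the sample labels give no pairing between them.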

Other observations

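In the cKO-labelled library, 28 cells had counts of at least 3 of 5 bulge markers, with a median of 38686.5 counts per cell beside 4055 for all kept cells, since a rule on detected markers favors deep cells. *Tcf7l2* was at 59.3 CPM (48.5 to 71.7) in these cells, with counts in 9 of them, beside 22.1 CPM in the others. *Wnt4* was at 115 CPM (99.4 to 131) beside 58.3 CPM and *Apc* at 79.9 CPM (67.4 to 94.2) beside 49.2 CPM, with 95% exact Poisson intervals for counting error. *Lrp6* was at 33.5 CPM (25.6 to 43.2) beside 50.4 CPM. *Tcf7l1*, known from bulge stem cells, was also lower, at 1.12 CPM (0.135 to 4.04) from 2 counts, beside 6.45 CPM. Another 65 cells had counts of at least 3 of 6 cell cycle markers, in which *Apc* was at 104 CPM (90.8 to 119) beside 47.1 CPM, *Axin2* at 19.5 CPM (14.0 to 26.4) beside 47.0 CPM and *Tcf7l2* at 9.98 CPM (6.18 to 15.3) beside 25.3 CPM. Of the 56 counts of *Lef1* in this library, 27 were in 2 of the 17 cells with at least 3 of 6 inner root sheath markers. The controls had 2 bulge-marker cells each and 2 and 7 cycling cells, too few to set beside these.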
